A study of Mus musculus with 18 samples.

Results

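*Mbnl1*, *Mbnl2*, *Celf1*, and *Celf2* encode RNA-binding proteins of the muscleblind-like (MBNL) and CUGBP/ELAV-like (CELF) families. The 4 genes were chosen by name, with earlier results of these data known. They were 4 of the 9435 genes listed in the expression table of the knockdown dataset and 4 of the 9472 listed in the table of the overexpression dataset. Of their 186 annotated splicing events, 161 had enough reads in every library of both datasets: 42 of 51 in *Mbnl1*, 28 of 36 in *Mbnl2*, 49 of 51 in *Celf1*, and 42 of 48 in *Celf2*.

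MBNL proteins bind short RNA motifs through zinc fingers, promote skipping of an exon when bound upstream of or within it, and promote its inclusion when bound downstream. They repress exon patterns typical of pluripotent cells, in which they are scarce. CELF proteins bind GU-rich RNA, act against MBNL proteins at many exons, and also shorten the life of bound mRNAs. Both families splice their own transcripts alternatively, which changes where the protein sits in the cell and how much of it is made.

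RNA was sequenced from primary mouse embryonic fibroblasts (MEFs) of the genotype Collagen-OKSM, M2rtta+, in which doxycycline switches on a cassette of 4 transcription factors (OKSM) that turns fibroblasts into pluripotent cells. The study asked how reprogramming depends on CPSF3, hnRNP UL1, and TIA1, proteins that act on RNA. The 18 libraries formed 9 groups of 2. Poly(A) RNA was sequenced with strand kept, and splicing was measured as percent spliced in (PSI), the share of reads that support inclusion. The knockdown dataset (12 libraries) held non-infected cells (NI) at day 0 and 5 groups at day 12 of doxycycline, each infected with a lentivirus. The shRNA was the control shSCR in 1 group, targeted *Cpsf3* in a pair of groups (shCPSF3#1 and shCPSF3#2), and targeted *Hnrnpul1* in another pair (shUL1#1 and shUL1#2). The overexpression dataset (6 libraries) held its own non-infected libraries of day 0, and libraries of day 12 from cells that had received an empty retrovirus (Empty) or a retrovirus for T7-tagged TIA1 (T7-TIA1). Infected cells were sorted for GFP at day 2, grown on irradiated feeder MEFs in medium with LIF, and harvested with trypsin, so day 12 RNA can include RNA of feeder cells. Nothing in the sources says that the 2 libraries of a group came from separate cultures or embryos, so the p-values measure the spread between these libraries only, which may be technical. In bulk RNA, fewer cells of a type and less RNA per cell cannot be told apart.

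The expression values come without read counts. In each library 100% of them were whole multiples, within 0.01 of a step, of a step fitted to that library, and read as counts they gave estimates of 98882289 to 109047542 reads on the listed genes. A separate search for the step over low values did not find it, so these depths are estimates and no test rests on them. The targeted genes followed their labels. *Cpsf3* stood at 38.6 to 77.1 scaled CPM (read counts relative to a library size that the authors scaled for each library) in the shCPSF3 libraries against 86.7 and 118 in shSCR, *Hnrnpul1* at 38.7 to 85.8 in the shUL1 libraries against 156 and 185 in shSCR, and *Tia1* at 613 and 469 in T7-TIA1 against 85.6 and 77.0 in Empty (2.71 ± 0.21 SE on the log2 scale, adjusted p = 0.222, which missed the threshold). Of 14 fibroblast markers, 13 were listed in the knockdown table, and their summed level was 16351 and 19801 scaled CPM in NI, 9114 and 7120 in shSCR, and 15514 to 34215 in the 8 knockdown libraries. None of the 11 pluripotency markers was listed in either table. Both tables hold filtered genes only, so this does not show that the markers were not expressed. The study followed *Pou5f1* and *Nanog* mRNA by RT-qPCR in such cells. Of 10 epithelial markers, *Krt8*, *Krt18*, and *Krt19* were listed in the knockdown table, and they summed to 62.4 and 49.9 scaled CPM in NI, 627 and 365 in shSCR, and 46.2 to 276 in the knockdowns. In the overexpression table, 12 fibroblast markers summed to 18217 and 41908 in NI, 6996 and 7927 in Empty, and 5681 and 6126 in T7-TIA1. Macrophage markers (2 of 5 listed, *Cd68* and *Csf1r*) summed to 6.58 to 9.34 in NI of the knockdown dataset and to 33.5 to 165 at day 12, and the endothelial marker *Tek* (1 of 4) was at 1.15 to 1.51 in NI and at 18.3 to 143 at day 12. The neuronal marker *Tubb3* (1 of 4) went from 36.7 and 42.0 in NI to 5.78 and 9.71 in shSCR and 15.1 to 34.5 in the knockdowns, and the muscle marker *Des* (1 of 5) from 54.1 and 54.8 to 13.8 and 15.4 and to 6.13 to 36.6. No macrophage, endothelial, or muscle marker was listed in the overexpression table, where *Krt19* alone of the epithelial markers was at 15.3 to 28.0 in NI, 31.4 to 43.2 in Empty, and 39.9 to 81.8 in T7-TIA1, and 2 neuronal markers summed to 72.9 and 125 in NI, 34.9 and 35.6 in Empty, and 42.4 and 32.9 in T7-TIA1.

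Of the splicing events described further on, 5 stretches of alternative coding sequence of *Mbnl1* and *Mbnl2* are shown first, because 4 of them are counterparts in the paralogs and the 36-nt exon lies between those of *Mbnl1*. Of the 5, the *Mbnl2* 54-nt exon alone passed the read test, a *limma* test on the log2 ratio of inclusion to exclusion reads, over all events in any comparison. They were read 5′ to 3′ from GENCODE M21 transcripts (GRCm38, the same assembly as mm10). *Mbnl1* (ENSMUSG00000027763) lies on the plus strand at chr3:60472830-60629750 and *Mbnl2* (ENSMUSG00000022139) on the plus strand at chr14:120275669-120431697. Each has a 54-nt cassette exon that keeps the reading frame and adds residues needed for MBNL proteins to stay in the nucleus. The exon of *Mbnl1* is at chr3:60614683-60614736 and that of *Mbnl2* at chr14:120395712-120395765. The capitals mark the 8 positions at which they differ, the other 46 bases (85.2%) being identical.
*Mbnl1* 54-nt exon: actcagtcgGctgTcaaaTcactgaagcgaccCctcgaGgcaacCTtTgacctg
*Mbnl2* 54-nt exon: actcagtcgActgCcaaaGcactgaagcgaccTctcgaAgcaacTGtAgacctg

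Further downstream, *Mbnl1* has a 36-nt coding exon at chr3:60621423-60621458, which keeps the frame, and a 95-nt coding exon at chr3:60622146-60622240, which does not. *Mbnl2* has a 53-nt event at chr14:120404680-120404732, which lies inside 5 longer annotated coding exons and is no annotated exon by itself, and whose length also does not keep the frame. The last 53 bases of the *Mbnl1* 95-nt exon and the *Mbnl2* 53-nt exon were identical at 47 positions (88.7%). The capitals mark the 6 positions that differ.
*Mbnl1* 36-nt exon: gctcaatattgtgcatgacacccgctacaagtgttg
*Mbnl1* 95-nt exon: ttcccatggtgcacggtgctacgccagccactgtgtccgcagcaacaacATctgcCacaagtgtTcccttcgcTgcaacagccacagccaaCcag
*Mbnl2* 53-nt exon: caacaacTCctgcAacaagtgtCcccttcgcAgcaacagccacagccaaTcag

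The mRNA levels at day 0 and day 12 were compared first, to see which of the 4 genes fall while the fibroblasts reprogram. *Mbnl1* and *Celf2* fell in both datasets, *Mbnl2* passed the test in the overexpression dataset alone, and *Celf1* did not pass the test in either. Of the 4 genes, 2 passed in shSCR against NI, both lower, where 44.5% of all genes passed, 22.5% of all being higher and 22.0% lower. In Empty against NI 3 passed, all lower, where 46.5% passed, 22.8% higher and 23.6% lower. Fold changes are on the log2(scaled CPM + 1) scale with the standard error (SE).

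*Mbnl1*, which encodes the founding mammalian member of its family, was at 309.7 and 295 scaled CPM in NI of the knockdown dataset and at 131 and 91.7 in shSCR. The overexpression dataset had 284 and 266 in NI and 140.3 and 156 in Empty. All day 12 control libraries were below all day 0 libraries, with no overlap in either dataset. *Mbnl1* fell by 1.46 ± 0.20 (SE, log2) in shSCR, 2.75-fold, with an adjusted p of 7.99e-04. It fell by 0.89 ± 0.11 in Empty, 1.85-fold, with an adjusted p of 0.0031. In shSCR the fall placed *Mbnl1* at percentile 3.62 of the log2 fold changes of all genes, and in Empty at percentile 10.9. The fall ran in the same direction as the summed fibroblast markers, and the part of a changing cell mixture in it was not tested.

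*Celf2* (ENSMUSG00000002107, minus strand, chr2:6539694-7509563), the family member known for splicing switches in T cells, showed a fall of like size. It was at 83.1 and 76.5 scaled CPM in NI and 24.6 and 34.1 in shSCR of the knockdown dataset, and at 74.2 and 65.4 in NI and 28.5 and 30.4 in Empty of the overexpression dataset. The day 0 and day 12 libraries did not overlap in either dataset. The fall was 2.69-fold in shSCR (log2 change -1.43 ± 0.22 SE, adjusted p = 0.0013) and 2.32-fold in Empty (-1.22 ± 0.14, adjusted p = 0.0024). Here too the fibroblast markers fell alongside, and their part was not tested.

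*Mbnl2*, the paralog whose protein binds overlapping RNA targets, was at 267 and 276 scaled CPM in NI of the knockdown dataset and at 258 and 181 in shSCR. Levels in the overexpression dataset were 335 and 301 in NI and 186 and 182 in Empty. Both day 12 control libraries were below both day 0 libraries in each dataset, but in the knockdown dataset shSCR replicate 1 (258) lay close to the lower NI library (267). The change was -0.33 ± 0.27 (SE, log2) in shSCR, with an adjusted p of 0.353, and -0.78 ± 0.10 in Empty, 1.72-fold lower, with an adjusted p of 0.0035. The 2 datasets were fitted separately, and the difference between them was not tested.

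*Celf1* (ENSMUSG00000005506, plus strand, chr2:90940382-91019497), whose protein is also called CUGBP1, was at 248 and 227 scaled CPM in NI and 197 and 249 in shSCR, and at 251 and 180.4 in NI and 257 and 246 in Empty of the overexpression dataset. Day 0 and day 12 libraries overlapped in both datasets. The changes were -0.10 ± 0.25 (SE, log2; adjusted p = 0.777) and 0.24 ± 0.17 (adjusted p = 0.285). With the libraries scaled to equal totals over the listed genes, the sign in shSCR turned to 0.04, while the median of all genes moved to 0.13. Without NI replicate 1 of the overexpression dataset, *Celf1* in Empty passed the test at 0.48 (adjusted p = 0.0050).

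**Figure D1:**
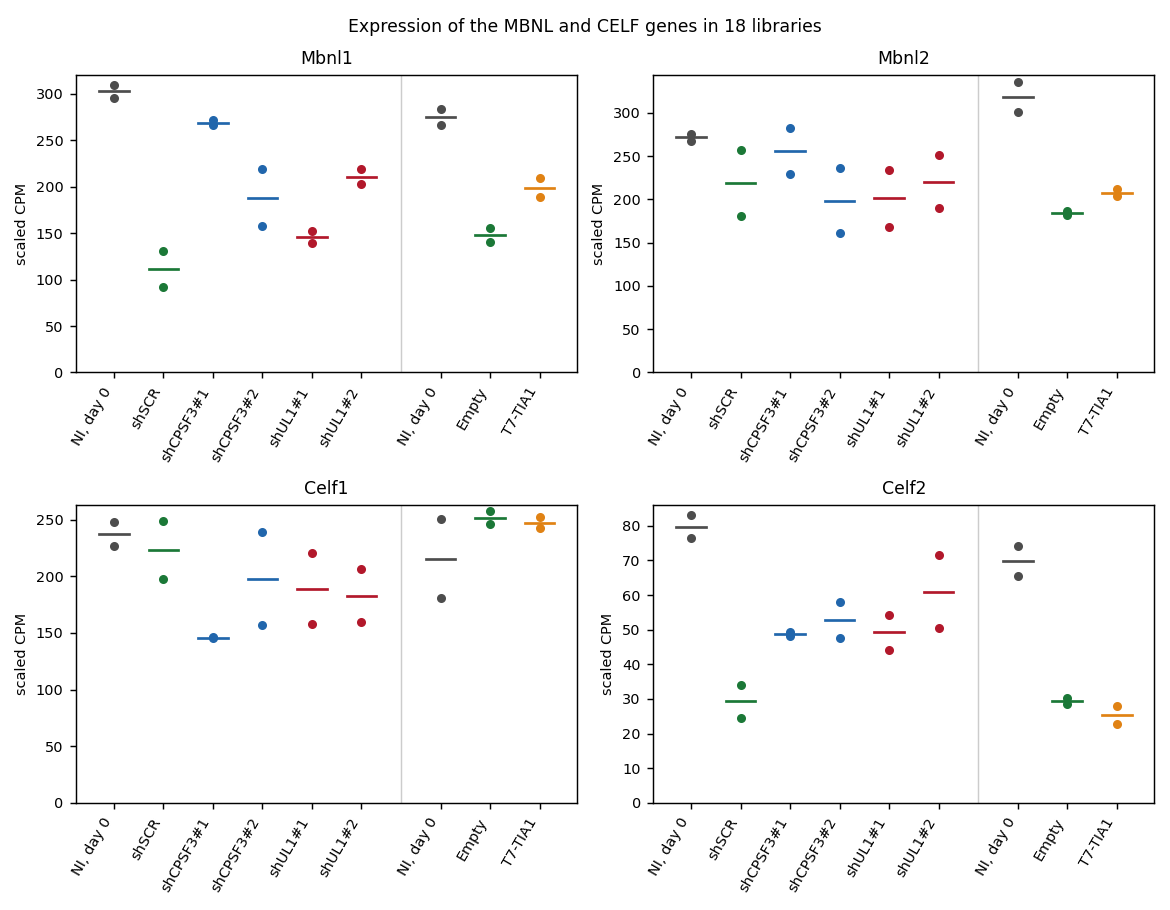
Scaled CPM of *Mbnl1*, *Mbnl2*, *Celf1*, and *Celf2* (y-axes, starting at 0) in the 9 groups (x-axes), with 1 point per library and a bar at the mean of 2 libraries. The vertical line separates the knockdown dataset (left) from the overexpression dataset (right), which were normalised separately. *Mbnl1* and *Celf2* are lowest in shSCR and Empty or T7-TIA1, and the 8 knockdown libraries lie between shSCR and NI for both genes.

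Knockdown of *Cpsf3*, which encodes the endonuclease that cuts pre-mRNAs before polyadenylation, was compared with shSCR at day 12 to see whether the genes stay up. *Mbnl1* and *Celf2* were higher in the knockdown, and the other two genes did not pass the test. *Mbnl1* was at 271 and 266 scaled CPM with shCPSF3#1 and at 219 and 157 with shCPSF3#2, all 4 libraries above both shSCR libraries and below both NI libraries. *Celf2* was at 48.3 and 49.2 with shCPSF3#1 and at 57.9 and 47.7 with shCPSF3#2, again all between shSCR and NI.

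With the mean of both shRNAs, *Mbnl1* rose by 1.02 ± 0.17 (SE, log2; adjusted p = 0.0063) and *Celf2* by 0.78 ± 0.19 (adjusted p = 0.0196), so 2 of the 4 genes passed, both higher, where 26.1% of all genes did (16.7% higher and 9.35% lower). The mean of shCPSF3#1 reached 88.8% of the day 0 mean for *Mbnl1* and 61.1% for *Celf2*, and that of shCPSF3#2 reached 62.1% and 66.2%, where shSCR stood at 36.7% and 36.8%. Against NI, *Mbnl1* did not pass the test (-0.44 ± 0.17, adjusted p = 0.0683), while *Celf2* was still lower (-0.64 ± 0.19, adjusted p = 0.0236), where 45.6% of all genes passed.

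Taken singly, shCPSF3#1 raised both *Mbnl1* (1.29 ± 0.20, adjusted p = 0.0042) and *Celf2* (0.73 ± 0.22, adjusted p = 0.0332), where 35.2% of all genes passed. shCPSF3#2 gave 0.76 ± 0.20 (adjusted p = 0.0702) and 0.84 ± 0.22 (adjusted p = 0.0661), short of the threshold, with 5.31% of all genes passing. None of the 4 genes differed past the test between the 2 shRNAs (adjusted p of 0.408 for *Mbnl1*), where 0.0212% of all genes did. With only shSCR and the shCPSF3 libraries in the fit, both rises kept their size and missed the threshold (adjusted p of 0.0675 for *Mbnl1* and 0.0729 for *Celf2*). *Mbnl1* also missed it without shSCR replicate 2 (0.77, adjusted p = 0.0534), and *Celf2* without shSCR replicate 1 (0.56, adjusted p = 0.104) or shCPSF3#2 replicate 1 (0.72, adjusted p = 0.0551).

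*Mbnl2* was at 283 and 229 with shCPSF3#1 and 236 and 161 with shCPSF3#2, overlapping shSCR, and its change of 0.04 ± 0.23 (adjusted p = 0.895) turned to -0.05 with equal totals. *Celf1* was at 145 and 146 with shCPSF3#1, below every other library of the knockdown dataset, and at 157 and 239 with shCPSF3#2. Its change over both shRNAs was -0.40 ± 0.21 (adjusted p = 0.190). The 4 shCPSF3 libraries held 17670 to 29747 scaled CPM of fibroblast markers, above shSCR, and 181 to 1300 scaled CPM of the 5 markers of dividing cells against 744 and 1476 in shSCR. The part of these cells in the results was not tested.

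Knockdown of *Hnrnpul1*, which encodes a nuclear ribonucleoprotein, gave the same order for *Mbnl1* and *Celf2*, with both rises nearer to the threshold. *Mbnl1* was at 153 and 139 scaled CPM with shUL1#1 and at 219 and 203 with shUL1#2, and *Celf2* at 54.2 and 44.2 with shUL1#1 and at 71.7 and 50.4 with shUL1#2. All 4 libraries were above both shSCR libraries and below both NI libraries for both genes. *Mbnl1* rose by 0.67 ± 0.17 (SE, log2; adjusted p = 0.0447) and *Celf2* by 0.88 ± 0.19 (adjusted p = 0.0259), 2 of 4 genes, both higher, where 10.5% of all genes passed (7.31% higher and 3.15% lower).

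Both genes stayed below their day 0 level, with changes against NI of -0.79 ± 0.17 for *Mbnl1* (adjusted p = 0.0074) and -0.55 ± 0.19 for *Celf2* (adjusted p = 0.0451), where 42.9% of all genes passed. The mean of shUL1#1 was 48.2% of day 0 for *Mbnl1* and 61.7% for *Celf2*, and the mean of shUL1#2 was 69.6% and 76.5%. Singly, shUL1#2 passed for *Mbnl1* (0.94 ± 0.20, adjusted p = 0.0344) and *Celf2* (1.03 ± 0.22, adjusted p = 0.0339), where 6.23% of all genes passed, and shUL1#1 did not, where 4.93% passed (0.41 ± 0.20, adjusted p = 0.262, and 0.74 ± 0.22, adjusted p = 0.0948). The difference between the 2 shRNAs did not pass for any of the 4 genes (adjusted p = 0.90 for *Mbnl1*), where 0.0% of all genes passed.

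The rise of *Mbnl1* in the *Hnrnpul1* knockdown lay close to the threshold. It was lost with only the compared groups in the fit (adjusted p = 0.115), with scaling by the median ratio (adjusted p = 0.0623), and on leaving out any 1 of the 6 libraries (0.42 to 0.93, adjusted p from 0.0533 to 0.279). The rise of *Celf2* was lost with only the compared groups (adjusted p = 0.107) and without shSCR replicate 1 (0.65, adjusted p = 0.128), shSCR replicate 2 (1.11, adjusted p = 0.0549), shUL1#1 replicate 1 (0.81, adjusted p = 0.0808), or shUL1#2 replicate 1 (0.76, adjusted p = 0.0741).

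*Mbnl2* (234, 168, 251, and 190.1 scaled CPM in the 4 libraries) and *Celf1* (158, 221, 159.6, and 206) overlapped shSCR, with changes of -0.05 ± 0.23 (adjusted p = 0.901) and -0.27 ± 0.21 (adjusted p = 0.438). The fibroblast markers summed to 15514 to 34215 in these libraries, above shSCR, and their part was not tested. Between the *Cpsf3* and *Hnrnpul1* knockdowns none of the 4 genes differed past the test, where 0.0424% of all genes did, and the difference for *Mbnl1* was 0.35 ± 0.14 with the *Cpsf3* knockdown the higher (adjusted p = 0.364). Both knockdowns were compared with the same shSCR libraries and are therefore not independent.

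TIA1 binds U-rich RNA next to weak 5′ splice sites, and its overexpression was compared with the empty vector at day 12. *Mbnl1* was at 209 and 189 scaled CPM in T7-TIA1, above both Empty libraries (140.3 and 156) and below both NI libraries. The difference was 0.42 ± 0.11 (SE, log2), with an unadjusted p of 0.0110 and an adjusted p of 0.999. It stood at percentile 97.6 of all genes. None of the 4 genes passed, and 0.0% of the 9472 genes did by *limma*, with 1 of the 4 at an unadjusted p under 0.05, where 4.15% of all genes were.

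*Celf2* in T7-TIA1 was below both Empty libraries, at 22.8 and 27.9 against 28.5 and 30.4 in Empty (-0.22 ± 0.14, adjusted p = 0.999). *Mbnl2* was at 212 and 204, above Empty without overlap (0.17 ± 0.10, adjusted p = 0.999), and *Celf1* at 242 and 252, overlapping Empty (-0.02 ± 0.17, adjusted p = 0.999). Unlike in the knockdown libraries, the summed fibroblast markers in T7-TIA1 were below those in Empty.

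**Figure D2:**
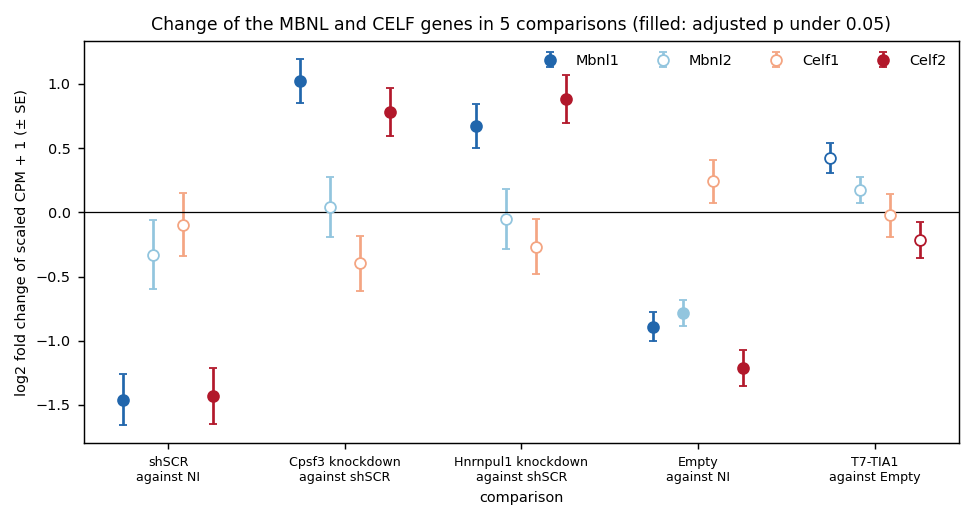
Log2 fold change of scaled CPM + 1 (y-axis) of the 4 genes in the 5 comparisons (x-axis), with bars of 1 SE from the *limma* fit, filled points where the adjusted p was under 0.05 and open points elsewhere. *Mbnl1* and *Celf2* lie at -1.46 and -1.43 in shSCR against NI and above 0 in both knockdowns, while no point of T7-TIA1 against Empty is filled.

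Over the 12 libraries of the knockdown dataset, the genes whose levels on the log2 scale were most like *Mbnl1* were *Gask1b* (Pearson r = 0.972), *Micall1* (0.967), and *Mfn2* (0.964). Those most like *Celf2* were *Otulin* (0.965), *Cavin2* (0.959), and *Prss23* (0.951). *Map4k5*, *Mcub*, and *Uap1* were most like *Mbnl2* (0.960 to 0.962), and *Srpk1* (0.995) and *Psph* (0.987) were most like *Celf1*. These correlations describe libraries that share day and replicate.

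Of the 5 other family members, *Celf4* and *Celf5* were listed in the knockdown table, and both were higher in shSCR than in NI. *Celf5* rose from 1.37 and 1.52 to 10 and 13.7 scaled CPM (2.38 ± 0.40, adjusted p = 0.0022), and *Celf4* from 15.4 and 11.8 to 24.4 and 19.5 (0.65 ± 0.22, adjusted p = 0.0412). In Empty, *Celf4* rose from 21.8 and 14.1 to 36.7 and 31.5 (0.92 ± 0.22, adjusted p = 0.0194), whereas *Mbnl3* fell from 10.9 and 13.8 to 6.80 and 5.63 (-0.89 ± 0.28, adjusted p = 0.0451). None of these passed the test in a knockdown or in T7-TIA1, where *Mbnl3* was at 15.2 and 8.54.

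Of 43 other regulators of alternative splicing, 25 were listed in the knockdown table. In shSCR against NI, 4 rose and 5 fell, together a smaller share than the 44.5% of all genes that passed, with a median log2 change of -0.01 beside 0.00 over all genes. The rises were *Rbm47*, which encodes a splicing regulator of epithelial cells (3.61 ± 0.32, adjusted p = 1.32e-04), *Msi2*, which encodes a Musashi protein of stem cells (2.44 ± 0.18, adjusted p = 6.48e-05), and the paralogs *Rbpms2* (2.52 ± 0.86, adjusted p = 0.0438) and *Rbpms*, the latter a splicing regulator of smooth muscle (1.72 ± 0.38, adjusted p = 0.0072). The falls, none as large as that of *Mbnl1*, were *Pcbp4*, *Elavl1*, *Khdrbs1*, *Ptbp2*, and *Rbfox2* (-1.25 to -0.40). In the *Cpsf3* knockdown 5 rose and 6 fell (median -0.15 beside 0.03), where 16.7% of all genes were higher and 9.35% lower. In the *Hnrnpul1* knockdown 3 rose and none fell (median -0.08 beside 0.00), where 7.31% were higher and 3.15% lower. The last were *Rbfox2* (0.41 ± 0.09), *Zcchc24* (0.78 ± 0.17), and *Tia1* (0.54 ± 0.10), named after their values were seen, and these also rose in the *Cpsf3* knockdown. In Empty, 6 of 26 listed regulators rose and 8 fell (median -0.12 beside 0.01), where 22.8% of all genes were higher and 23.6% lower, and none of the 26 passed in T7-TIA1 (median 0.03 beside 0.00), where 0.0% of all genes did.

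Splicing of the 4 genes was examined next, to see whether their own isoforms changed with reprogramming. Of the 161 events with reads in all 18 libraries, 60 were cassette exons, 42 retained introns, 34 alternative 3′ splice sites, and 25 alternative 5′ splice sites, and only 32 had a group mean PSI between 5 and 95 in any group: 12 in *Mbnl1*, 6 in *Mbnl2*, 9 in *Celf1*, and 5 in *Celf2*. In shSCR against NI, 14 events passed the read test (8.70%, where 4.53% of all events did), but 9 of the 14 had a mean of fewer than 5 reads of the rarer form. Of these 9, 3 were the forms of 1 alternative 3′ splice site of *Mbnl1* with 0 reads of the rarer form and a ∆PSI of 0.0, whose log2 ratio is set by the number of reads and the added read alone, and both the 14 and the 4.53% include calls of this kind. With such events left out, a restriction chosen after seeing the data and called the restricted events from here on, 41 remained, of which 6 passed (13.3% of the 64109 remaining events did). By the rule of the study, a mean difference (∆PSI) of at least 10 with at least 5 between the closest libraries, 6 events changed (3.73%, where 1.18% of all events did). The study used this rule between day 0 and day 12. For the knockdowns and TIA1 it compared changes from day 0, by at least 10, and required both shRNAs. Here the same rule was set directly against shSCR or Empty, with the mean of both shRNAs, so those counts are not the study's own. An alternative splice site counts as 1 event for each of its forms, 2 or more per site.

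The *Mbnl2* 54-nt exon shown above passed the read test in shSCR and in the *Cpsf3* knockdown. Its PSI was 12.8 and 10.7 in NI and 20.4 and 33.2 in shSCR, and in the knockdowns it was 6.65 and 6.39 with shCPSF3#1, 10.4 and 12.3 with shCPSF3#2, 10.7 and 10.5 with shUL1#1, and 8.83 and 11.8 with shUL1#2. The 2 shSCR libraries were above all others of the dataset, and the 8 knockdown libraries were at 12.3 or lower, where the higher NI library was at 12.8. The exon rested on 285 to 526 reads per library.

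The ∆PSI of this exon was 15 in shSCR against NI (log2 ratio of inclusion to exclusion reads 1.41 ± 0.29 SE, adjusted p = 0.0419). It was -17.9 in the *Cpsf3* knockdown against shSCR (-1.89 ± 0.26, adjusted p = 0.0376), and -16.3 in the *Hnrnpul1* knockdown (-1.59 ± 0.26, adjusted p = 0.0792). Among events with at least 5 reads of the rarer form, the 3 adjusted p were 0.0039, 3.13e-04, and 0.0020. The direction was kept without any single library. The call in shSCR was lost without NI replicate 1 (adjusted p = 0.133), NI replicate 2 (0.177), or shSCR replicate 2, when the effect was 0.93 (adjusted p = 0.0741). That in the *Cpsf3* knockdown was lost without any 1 of the shCPSF3 libraries (adjusted p of 0.0726 to 0.109), and the *Hnrnpul1* knockdown passed without shSCR replicate 1 (adjusted p = 0.0340). The overexpression libraries were at 14.9 and 7.28 in NI, 16.1 and 13.8 in Empty, and 16.4 and 15.4 in T7-TIA1. These libraries overlapped, and neither difference passed (adjusted p = 0.548 and 1.00).

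The *Mbnl1* 54-nt exon did not show the same order. Its PSI was 18.6 and 13.8 in NI, 11.3 and 11.2 in shSCR, 5.90 and 4.96 with shCPSF3#1, 5.83 and 7.94 with shCPSF3#2, 9 and 8.43 with shUL1#1, and 6.92 and 7.14 with shUL1#2. Day 12 libraries were all below day 0, and all 8 knockdown libraries were below shSCR. The change in the *Cpsf3* knockdown was -0.97 ± 0.20 (log2 ratio ± SE), with an adjusted p of 0.0764 over all events and 0.0324 over the restricted events. The ∆PSI was -5.08, under the minimum of the study's rule. The log2 ratio changed by -0.57 ± 0.21 in shSCR against NI (adjusted p = 0.151) and by -0.58 ± 0.20 in the *Hnrnpul1* knockdown (adjusted p = 0.274). Among the overexpression libraries, NI stood at 17.3 and 9.74, Empty at 13.5 and 9.80, and T7-TIA1 at 11.5 and 11.8, with overlap throughout.

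The 36-nt exon of *Mbnl1*, known to promote contacts between MBNL1 molecules, had a PSI of 30.8 and 29.4 in NI, 24.9 and 30.3 in shSCR, 18.3 to 27.3 in the shCPSF3 libraries, and 18.3 to 21.5 in the shUL1 libraries. It passed no test in any comparison, the largest change being -0.60 ± 0.17 in the *Hnrnpul1* knockdown (log2 ratio ± SE, adjusted p = 0.208). The frame-shifting 95-nt exon was at 62.5 and 56.5 in NI, 49.9 and 68.1 in shSCR, 42.9 to 55.1 in the shCPSF3 libraries, and 56.7 to 62.4 in the shUL1 libraries. Its PSI in the overexpression dataset was 56.5 and 46.8 in NI, 75.6 and 63.0 in Empty, and 62.9 and 64.2 in T7-TIA1. It met the rule of the study in Empty against NI (∆PSI 17.6, adjusted p = 0.243), whereas in shSCR against NI the ∆PSI was -0.56.

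The related 53-nt exon of *Mbnl2* was at 70.8 and 60.5 in NI and 63.9 and 65.8 in shSCR. With shCPSF3#1 it was at 49.0 and 52.0 and with shCPSF3#2 at 50.9 and 56.0, all below shSCR and NI. The ∆PSI in the *Cpsf3* knockdown was -12.9, which met the rule of the study (-0.77 ± 0.20 on the log2 ratio, adjusted p = 0.130 over all events and 0.0343 over the restricted events). With shUL1#1 it was at 64.5 and 56.2 and with shUL1#2 at 52.1 and 53, and the *Hnrnpul1* knockdown did not pass (adjusted p = 0.346).

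The 5′ part of *Mbnl1* changed in both datasets. A 223-nt exon at chr3:60528756-60528978, which GENCODE annotates with no coding bases, had a PSI of 58.7 and 59.3 in NI, 38.3 and 45.2 in shSCR, 30.7 and 23.6 with shCPSF3#1, 30.6 and 24.6 with shCPSF3#2, 39.5 and 47.0 with shUL1#1, and 38.5 and 27.5 with shUL1#2. All day 12 libraries were below day 0, and the shCPSF3 libraries were below shSCR. Overexpression libraries were at 63.3 and 46.1 in NI, 34.4 and 26.2 in Empty, and 25.9 and 24.9 in T7-TIA1, with NI above the rest.

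The ∆PSI of the 223-nt exon was -17.3 in shSCR (adjusted p = 0.103, restricted 0.0346), -24.4 in Empty (adjusted p = 0.209, restricted 0.0389), and -14.4 in the *Cpsf3* knockdown against shSCR (adjusted p = 0.171, restricted 0.0602). All 3 met the rule of the study. The following event, a 163-nt exon at chr3:60529642-60529804 that lies inside an annotated coding exon, moved likewise. Its PSI was 72.9 and 74.7 in NI and 63.4 and 63.9 in shSCR, 39.3 to 57.4 in the shCPSF3 libraries, and 47.0 to 62.1 in the shUL1 libraries. Overexpression libraries stood at 75.6 and 63.6 in NI, 52.7 and 47.3 in Empty, and 45.1 and 43.1 in T7-TIA1. Day 12 was again below day 0 in all libraries. The ∆PSI was -10.2 in shSCR, -13.0 in the *Cpsf3* knockdown, and -19.6 in Empty, of which the last passed only over the restricted events (adjusted p = 0.194 and 0.0440).

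Other *Mbnl1* events passed the read test with small differences. A 549-nt exon at chr3:60546946-60547494 that is not annotated in GENCODE rose from 3.2 and 3.89 in NI to 11.8 and 14.5 in shSCR (2.01 ± 0.32 on the log2 ratio, adjusted p = 0.0213). It was at 6.98 to 13.8 in the knockdown libraries and at 1.79 to 8.16 in the overexpression dataset. A 111-nt exon at chr3:60596719-60596829 fell from 9.45 and 9.75 in NI to 3.45 and 2.86 in shSCR (-1.54 ± 0.24, adjusted p = 0.0205). It was at 4.65 to 8.41 in the knockdown libraries, all above shSCR. The change was 1.22 ± 0.23 in the *Cpsf3* knockdown (adjusted p = 0.0672, restricted 0.0402) and 1.00 ± 0.24 in the *Hnrnpul1* knockdown (adjusted p = 0.151, restricted 0.130). In T7-TIA1 this exon was at 13.5 and 13.3 against 6.96 and 5.79 in Empty, without overlap (unadjusted p = 5.96e-04, adjusted p = 0.606).

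The 2883-nt intron behind the 95-nt exon, at chr3:60622241-60625123, was retained at 2.39 and 1.92 in NI and at 4.75 and 5.50 in shSCR (1.28 ± 0.16, adjusted p = 0.0111). With shCPSF3#1 it was at 2.31 and 2.34 and with shCPSF3#2 at 2.31 and 2.54 (-1.14 ± 0.14 against shSCR, adjusted p = 0.0278). The shUL1 libraries overlapped shSCR (2.02 to 5.24, adjusted p = 0.142). The intron and the *Mbnl2* 54-nt exon were the only 2 of 161 events that passed the read test in the *Cpsf3* knockdown (1.24%, where 0.612% of all events did). By the rule of the study 4 changed (2.48%, where 0.396% did), and over the restricted events 7 passed (6.84% of all such events did).

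**Figure D3:**
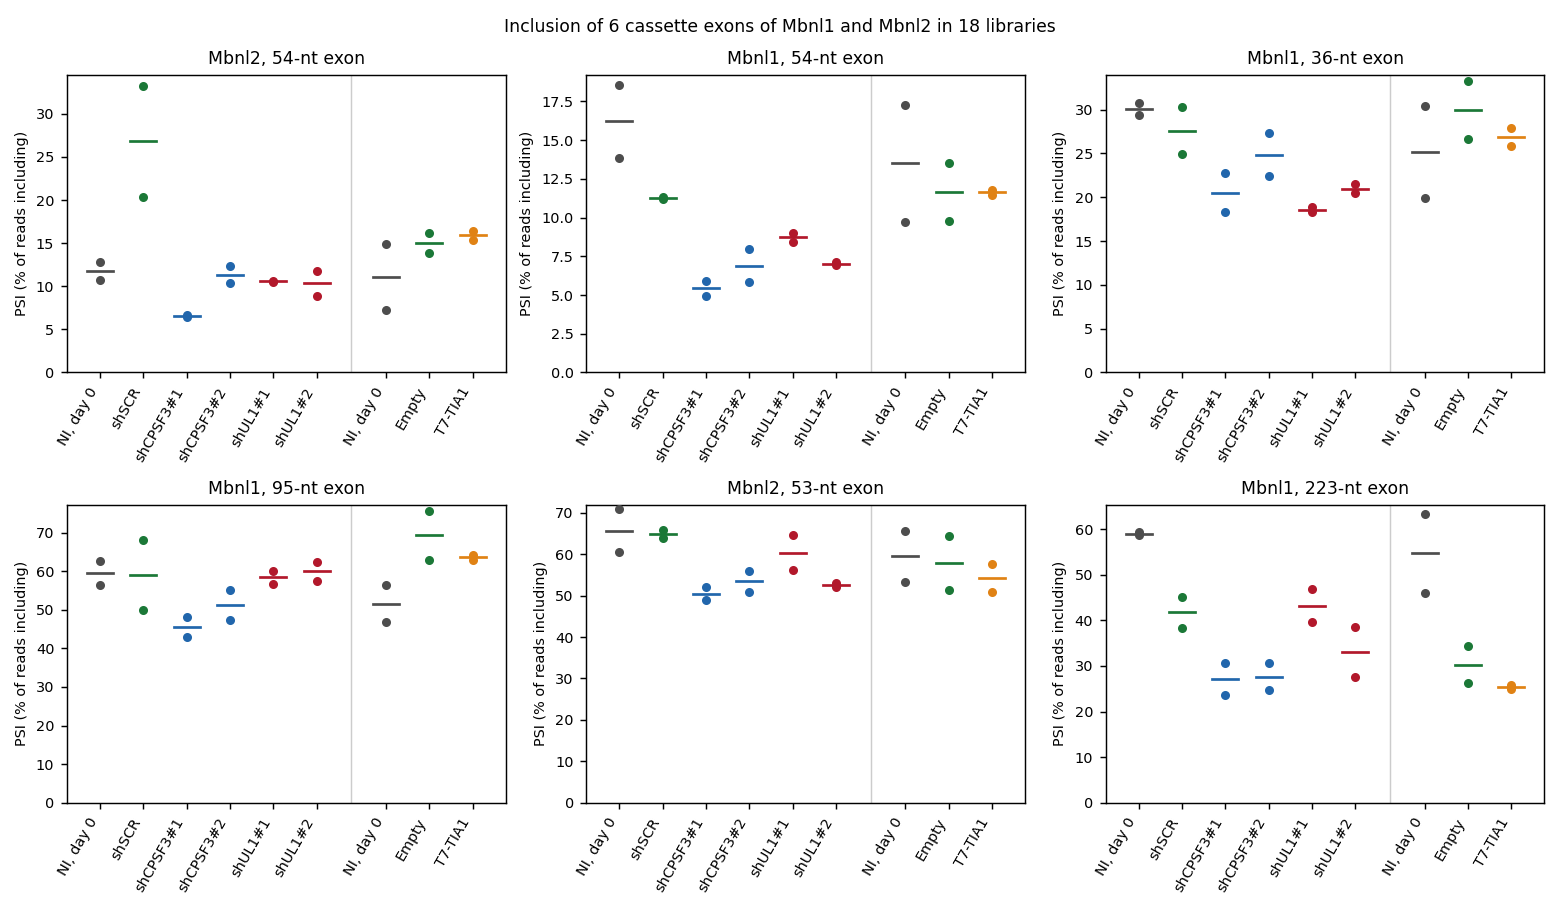
PSI (y-axes, in % and starting at 0, with a different upper end in each panel) of 6 cassette exons of *Mbnl1* and *Mbnl2* in the 9 groups (x-axes), with 1 point per library and a bar at the mean of 2 libraries. The *Mbnl2* 54-nt exon is highest in the shSCR libraries (20.4 and 33.2), the *Mbnl1* 54-nt exon is at 4.96 to 9 in the knockdowns, and the 223-nt exon of *Mbnl1* is highest at day 0 in both datasets.

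In *Celf1*, a 152-nt exon at chr2:90987665-90987816 that holds an annotated start codon was at 42.8 and 40.9 in NI and 50.1 and 58.0 in shSCR. It was at 44.3 and 35.0 with shCPSF3#1, 46.5 and 40.1 with shCPSF3#2, 44.0 and 38.9 with shUL1#1, and 42.0 and 38.6 with shUL1#2, so shSCR was above all other libraries. The ∆PSI was 12.2 in shSCR (adjusted p = 0.112), -12.6 in the *Cpsf3* knockdown (adjusted p = 0.131, restricted 0.0482), and -13.2 in the *Hnrnpul1* knockdown (adjusted p = 0.173, restricted 0.0572). All 6 libraries of the overexpression dataset lay within 37.0 to 40.5.

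A 3′ splice site of *Celf1* at chr2:91006632 that shortens a coding exon by 12 nt was used at 20.1 and 22.4 in NI and 25.6 and 33.4 in shSCR, and at 21.9 and 19.7 in NI and 37.5 and 44.8 in Empty. The day 0 libraries were lower in both datasets. The ∆PSI was 8.26 in shSCR (adjusted p = 0.458) and 20.4 in Empty (1.40 ± 0.19 on the log2 ratio, adjusted p = 0.129, restricted 0.0153). The knockdown libraries ranged from 22.2 to 42.9, and T7-TIA1 was at 39 and 42.6.

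In *Celf2*, a 5′ splice site that shortens a coding exon by 12 nt (the 120-nt form at chr2:6560671-6560790) was used at 32.3 and 34.5 in NI and at 50.0 and 43.3 in shSCR, and at 26.6 and 29.6 in NI and 39.2 and 48.3 in Empty. Day 0 was lower without overlap in both datasets, with ∆PSI of 13.3 (adjusted p = 0.0850) and 15.7 (adjusted p = 0.256) that met the rule of the study. The knockdown libraries were at 35.3 to 44.9, and T7-TIA1 at 30.3 and 45.9. This event had 62 to 200 reads per library. An intron of *Celf2* at chr2:6545676-6547041 rose from 5.84 and 4.25 in NI to 8.18 and 8.93 in shSCR (0.85 ± 0.18, adjusted p = 0.0435, restricted 0.144), and 2 further introns, 1 in *Celf1* and 1 in *Celf2*, passed with PSI of 0.31 or less in NI and 0.70 to 1.47 in shSCR, on a mean of less than 1 read of the rarer form.

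In the *Hnrnpul1* knockdown none of the 161 events passed the read test, where 0.146% of all events did. At an unadjusted p under 0.05 there were 48 (29.8%, where 13.6% of all events were), a count that again takes in events with few reads of the rarer form, and 1 passed over the restricted events (3.53% of all such events did). The *Mbnl2* 54-nt and *Celf1* 152-nt exons met the rule of the study (1.24%, where 0.333% did). In Empty against NI none passed, where 0.000525% of all events did, that is 2 of 380903, and 7 events (4.35%, where 0.658% did) met the rule of the study. At an unadjusted p under 0.05 there were 48 (29.8%, where 17.9% of all events were). Of these, 25 were in *Celf2*, 13 in *Mbnl1*, 7 in *Celf1*, and 3 in *Mbnl2*. Only 5 of the 42 *Celf2* events had a mean of at least 5 reads of the rarer form. With few such reads, the log2 ratio can move with the number of reads alone. Over the restricted events 4 passed (0.0561% of all such events did). In T7-TIA1 against Empty none passed, over all or the restricted events (0.0% of all events in both), and none met the rule (0.272%), with 7 at an unadjusted p under 0.05 (4.35%, where 5.75% of all events were).

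Cassette exons of other genes known to hold exons that depend on MBNL or CELF proteins were examined next. All covered cassette exons of these genes were taken, whether or not MBNL or CELF proteins are known to act on them. These genes were listed with earlier results of these data known. The list held 49 genes, and 38 of them had 944 covered cassette exons in the knockdown dataset. In shSCR against NI, 56 of these exons passed the read test, 5.93% of the 944 against 5.29% of all cassette exons, so that by this test the listed genes were near the background. PSI was higher for 13 of the 56 and lower for 22, and for 21 the ∆PSI was 0. Of the 5768 cassette exons that passed among all genes, 1894 were higher, 1102 lower, and 2772 had a ∆PSI of 0. Fewer than 5 reads of the rarer form supported 33 of the 56. In the *Cpsf3* knockdown 9 listed exons rose and 4 fell (1.38% against 0.825%), where 374 rose and 399 fell among all cassette exons. In the *Hnrnpul1* knockdown 2 rose and 1 fell (0.318% against 0.244%), where 123 rose and 130 fell. None of 953 listed exons passed in Empty (0.00181% of all cassette exons did) or in T7-TIA1 (0% did).

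The rule of the study, which uses no test, gave other counts. By it 25 listed exons changed in shSCR (2.65%, against 1.39% of all cassette exons), 8 in the *Cpsf3* knockdown (0.847% against 0.521%), 5 in the *Hnrnpul1* knockdown (0.53% against 0.43%), 18 in Empty (1.89% against 0.863%), and 6 in T7-TIA1 (0.63% against 0.375%). Which of these exons MBNL or CELF proteins bind in MEFs was not measured.

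Among the exons with the largest ∆PSI of those that passed in shSCR, 5 are described, in *Itga6*, *Nasp*, *Bin1*, *Fn1*, and *Spag9*. The 130-nt exon of *Itga6*, which encodes an integrin subunit with alternative cytoplasmic tails, fell from 76.4 and 84.6 in NI to 23.4 and 18.8 in shSCR (∆PSI -59.4, adjusted p = 0.0064). It was at 79.5 and 69.5 with shCPSF3#1, 39.4 and 36.7 with shCPSF3#2, 47.1 and 40.6 with shUL1#1, and 61.8 and 46.6 with shUL1#2, all above shSCR. The *Cpsf3* knockdown passed (∆PSI 35.1, adjusted p = 0.0418), and the *Hnrnpul1* knockdown did not (27.9, adjusted p = 0.0989).

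The 39-nt exon of *Spag9*, which encodes a scaffold of JNK signalling, fell from 60.4 and 64.5 to 45.3 and 37.2 (adjusted p = 0.0455) and was at 57.4 to 70.6 in the knockdown libraries, all above shSCR (adjusted p of 0.0483 for *Cpsf3* and 0.105 for *Hnrnpul1*).

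The other 3 exons passed in neither knockdown. The 975-nt exon of *Nasp*, which encodes a histone chaperone, rose from 18.2 and 19.0 in NI to 74.7 and 80.7 in shSCR (∆PSI 59.0, adjusted p = 0.0261), and the knockdown libraries at 43.8 to 79.2 overlapped shSCR (adjusted p of 0.326 and 0.632). The 129-nt exon of *Bin1*, which encodes a membrane-bending protein, rose from 12.0 and 9.92 to 34.2 and 35.5 (adjusted p = 0.0053) and was at 20.2 to 31.3 in the knockdowns, below shSCR (adjusted p of 0.135 and 0.143). The 270-nt exon of *Fn1*, which encodes fibronectin, fell from 64.9 and 64.1 to 47.8 and 37.5 (adjusted p = 0.0256) and lay still lower in the shCPSF3 libraries at 23.3 to 27.5 (∆PSI -17.1, adjusted p = 0.0562) and at 21.6 to 38.4 in the shUL1 libraries (adjusted p = 0.137).

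All 5 exons differed between NI and Empty in the same direction as in the knockdown dataset, with no overlap, and none passed the read test (adjusted p from 0.0939 to 0.199). *Itga6* went from 79.9 and 84.7 to 34.5 and 37.9, and *Nasp* from 16.8 and 17.3 to 79.7 and 77.3. In T7-TIA1, where *Mbnl1* was above Empty, *Itga6* was at 39.1 and 38.9. *Spag9* was at 35.9 and 37.1, below Empty (45.6 and 54.1) and farther from day 0 (∆PSI -13.4, adjusted p = 0.819).

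Levels of the listed target genes themselves were compared as well. In shSCR against NI 2 of 35 rose and 12 fell, where 22.5% of all genes were higher and 22.0% lower (median log2 change -0.15 beside 0.00). In the *Cpsf3* knockdown 12 rose and 1 fell, where 16.7% were higher and 9.35% lower (median 0.26 beside 0.03). The *Hnrnpul1* knockdown had 3 that rose and none that fell, beside 7.31% and 3.15% of all genes (median 0.07 beside 0.00). In Empty 5 of 37 rose and 14 fell, beside 22.8% and 23.6% (median -0.38 beside 0.01), and none passed in T7-TIA1, where 0.0% of all genes did (median -0.03 beside 0.00). The largest changes were *Nasp* (2.13 ± 0.21 in Empty), *Actn1* (-2.08 ± 0.23 in shSCR), *Bin1* (-1.68 ± 0.14 in Empty), and *Dtna* (-1.28 ± 0.28 in Empty).

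**Figure D4:**
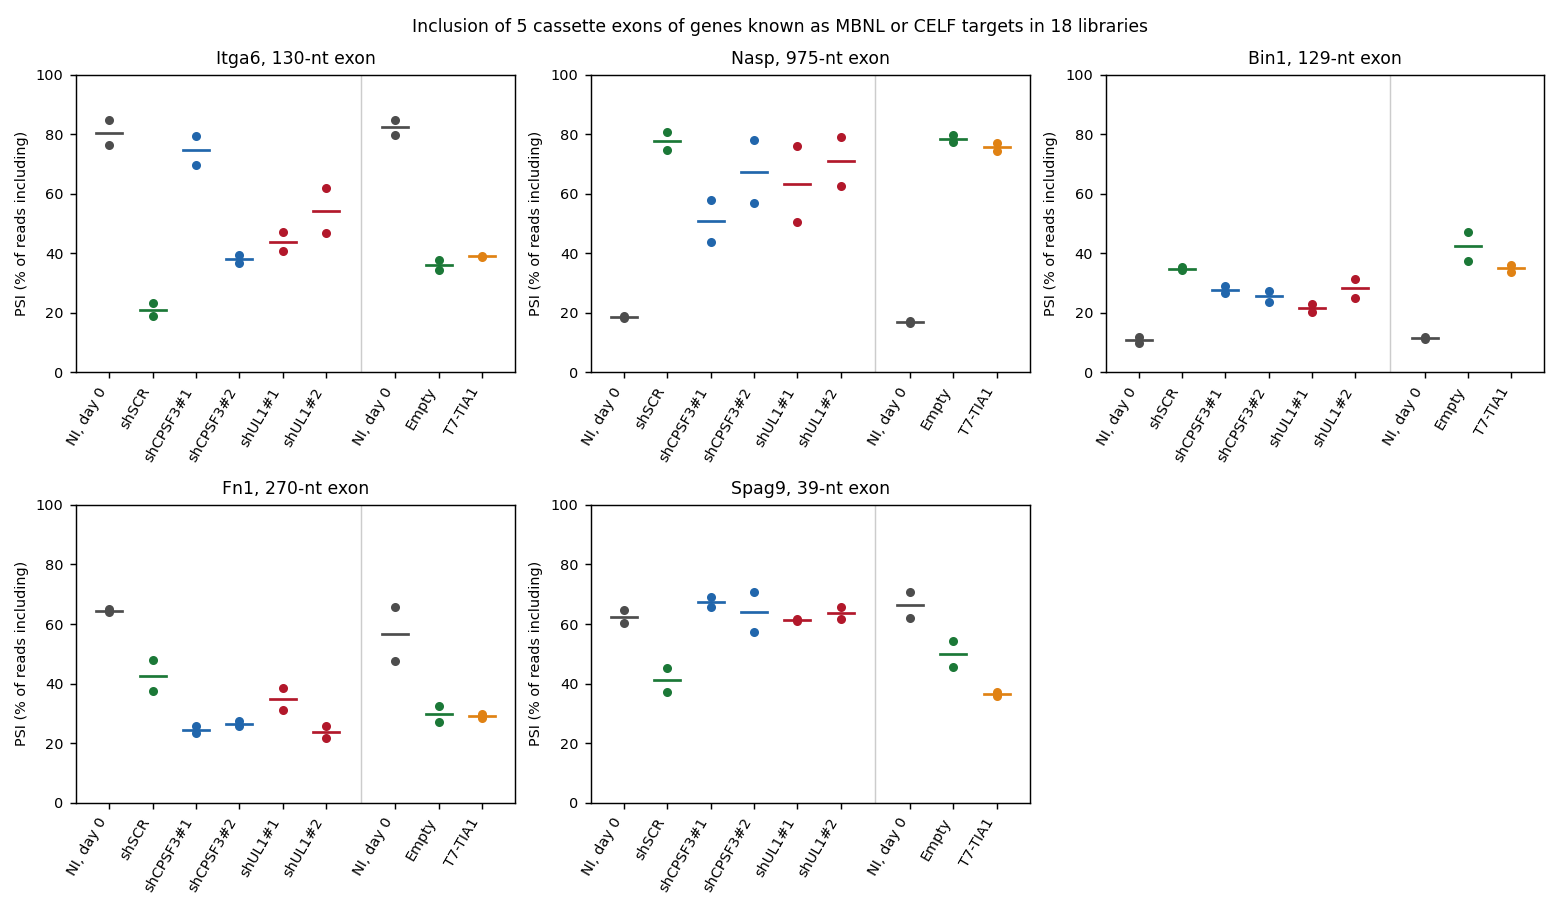
PSI (y-axes, 0 to 100%) of 5 exons of listed target genes among those with the largest change in shSCR against NI, in the 9 groups (x-axes), with 1 point per library and a bar at the mean of 2 libraries. For *Itga6* and *Spag9* the knockdown libraries lie above shSCR (for *Spag9* at 57.4 to 70.6 against 45.3 and 37.2), and T7-TIA1 lies below Empty for *Spag9*.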

How the data were processed

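RNA-seq of 18 libraries (9 groups of 2) was analysed. The authors mapped reads to mm10 with *STAR* 2.7.1a and computed CPM with *edgeR* 3.16.5. For other datasets that they analysed, they state a filter of at least 5 CPM in 33% of samples and a coefficient of variation of at least 0.2. The paper does not state the filter behind the expression tables used here. The deposited expression values are a signal: CPM on a library size scaled per library. The deposited PSI values are a percent from *vast-tools*, with read support in a quality column. Groups and days follow the titles of the libraries. For shUL1#2 and NI of the overexpression dataset another field of the labels names the other day.

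Scaled CPM plus 1 was put on the log2 scale and tested with *limma* 3.58.1 (R 4.3.3) with trend, two-sided, each dataset being fitted once with its groups together. P-values were adjusted by Benjamini-Hochberg over every gene in the table, with a threshold of 0.05. The design had foreseen unscaled CPM. The test did not change for the scaled unit. Events that reached the coverage score VLOW in each library of the dataset were tested with the *limma* model on log2((inclusion + 1)/(exclusion + 1)), weighted by the inverse of the counting variance plus 0.05, with robust variances, over 374159 and 380903 events. Both tests were run on simulated data first. Intervals of PSI are not given, and reads are not independent molecules.

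The genes, gene lists (other MBNL and CELF genes, other splicing regulators, target genes, cell type markers), and events were chosen with earlier results of these data known. Named were the 4 genes, the 3 genes most correlated with each, at most 4 called genes per list, events of the 4 genes that passed a criterion (the 16 largest ∆PSI) plus 6 fixed exons, and the 6 target exons with the largest ∆PSI. Among the correlated genes and the target exons, 1 item each is not reported here.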

Additional observations from a re-analysis of the deposited data

Results flagged for a closer look

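One event of the 4 genes went opposite ways in the 2 datasets. Retention of the 2883-nt *Mbnl1* intron behind the 95-nt exon was higher in both shSCR libraries than in both NI libraries (mean difference 2.97 percentage points of PSI) and lower in both Empty libraries than in both NI libraries of the overexpression dataset (-0.81). The datasets were processed separately and the difference between them was not tested.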

How the results depend on the processing

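The falls of *Mbnl1* and *Celf2* at day 12 passed under every alternative run, and so did that of *Mbnl2* in Empty. The number of the 4 genes that passed went from 2 to 0 in each knockdown with only the compared groups in the fit, and to 1 in the *Hnrnpul1* knockdown with scaling by the median ratio. Leaving out single libraries gave 1 to 2 genes in the *Cpsf3* knockdown, 0 to 1 in the *Hnrnpul1* knockdown, and 3 to 4 in Empty. Signs turned only in changes that passed no test. With equal totals these were *Mbnl2* in the *Cpsf3* knockdown (-0.0502) and *Celf1* in shSCR (0.0383). Without single libraries they were *Mbnl2* in the *Cpsf3* knockdown (-0.21 to 0.30), *Mbnl2* in the *Hnrnpul1* knockdown (-0.31 to 0.20), *Celf1* in shSCR (-0.262 to 0.0695), and *Celf1* in T7-TIA1 (-0.0582 to 0.0089). Same-numbered libraries of the day 12 knockdown groups deviated together (r of 0.67 to 0.95 across genes for 10 pairs of groups, -0.13 to 0.02 with NI, and 0.17 to 0.31 in the overexpression dataset), a hint from the data and not from the design. With the replicate block, which assumes this pairing, *Mbnl1* in the *Hnrnpul1* knockdown had an adjusted p of 0.0091, no call on the 4 genes changed, and the share of all genes that passed rose to 49.8% in the *Cpsf3* knockdown and to 29.3% in the *Hnrnpul1* knockdown.

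Counts of events were less stable. In shSCR the 14 events became 9 at the stricter coverage score, 3 on unweighted PSI, 17 with the replicate block, and 0 to 2 without single libraries. Over events with at least 5 reads of the rarer form, added after seeing the data, the counts were 6 in shSCR, 7 in the *Cpsf3* knockdown, 1 in the *Hnrnpul1* knockdown, and 4 in Empty. The *Cpsf3* knockdown gave 0 to 2 events and the *Hnrnpul1* knockdown 0 to 1 without single libraries, and the latter 1 on unweighted PSI. With a minimum ∆PSI of 15 the rule of the study left 2 events in shSCR, 1 in the *Cpsf3* knockdown, and 1 in the *Hnrnpul1* knockdown. The causes were not tested, except that fewer events or libraries enter some fits. Count tests were not run on the estimated reads, because only 1 of the 2 ways of finding the step gave whole reads. Depth limits events with few reads, and in the overexpression dataset a ∆PSI of 61.5 (*Nasp*) did not pass with 6 libraries.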
